A study of Mus musculus with 3 samples.

Results

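The genes described here were 31 mouse genes of the Fanconi anaemia pathway and of DNA interstrand crosslink repair, chosen by their symbols among the 55450 genes of the deposited matrices. Each of the 31 symbols was found once. The samples were 3 single-cell libraries of mouse testis, 1 per group, and every group had been given busulfan, an alkylating drug that crosslinks DNA and empties the testis of germ cells (a model of azoospermia). The PBS group then received phosphate-buffered saline, the EXO group blood exosomes of wild-type mice, and the dEXO group blood exosomes of mice with an imbalance of the gut microbiota. All groups thus share the busulfan, and every value below belongs to a testis after it. Strain, age and how many animals were pooled per library are not given in the sources used here. With 1 library per group there was no test: intervals are exact 95% intervals that cover counting error only, and differences were judged by a size rule.

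An interstrand crosslink ties both strands of the double helix together and stops replication forks. In the Fanconi pathway a core complex of several proteins, with the ligase FANCL and its partner UBE2T, attaches ubiquitin to the FANCD2-FANCI pair, and USP1 with WDR48 removes it again. Nucleases around the SLX4 scaffold then unhook the crosslink, translesion polymerases copy past the remnant, and homologous recombination restores the broken strand. Mice and people lacking these genes often have small gonads and few germ cells, and several of the proteins also work in meiotic recombination.

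The libraries held 5514, 10228 and 9760 barcodes in PBS, EXO and dEXO, where the protocol aimed at 5000 cells per library, and 97253862, 91787154 and 96655663 UMIs (unique molecular identifiers, each standing for 1 captured transcript). The median barcode had 7708, 3144.5 and 2852 UMIs, so cells of the PBS library were the deepest. After filtering, 24074 cells were used, and each pair of libraries shared 19 barcode sequences. Germ cells of named stages were fewer in PBS: 93, 191 and 367 spermatogonia, 18, 191 and 332 early spermatocytes, 36, 274 and 524 late spermatocytes, and 70, 359 and 580 spermatids in PBS, EXO and dEXO. Comparisons that involve spermatocytes therefore rest on EXO and dEXO, and PBS values for those stages are given as values only. Of the 36 late spermatocytes of PBS, 31 lay in low-UMI subclusters, and the median of the class was 1449 UMIs. The other 5, in subcluster g14, had a median of 111547 UMIs, where the class held 930121 UMIs. A few deep cells thus carry much of its sums. The wording of the extraction protocol speaks of aorta, whereas the germ stages and the Leydig markers found here are those of testis. The doublet caller marked 0.0759% of PBS and 0.0203% of EXO cells and so did not work there, which leaves doublets in these classes.

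Levels are given as CPM, the UMIs of a gene per 1000000 UMIs of the class in that library. A gene was called higher or lower in a comparison when its CPM differed at least 2-fold with an interval that excluded no difference, with at least 50 UMIs over both sides, and, for comparisons of cell classes, in the same direction in each library that had at least 50 cells on both sides. Classes came from clustering the same cells with the 31 genes kept out of the genes that were clustered.

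Summed over the 31 genes, crosslink repair transcripts were highest in early spermatocytes among the named classes, followed by spermatogonia. The sum was 1698, 1744 and 1653 CPM in spermatogonia of PBS, EXO and dEXO, with counting intervals of 1649 to 1749, 1696 to 1794 and 1620 to 1687. Early spermatocytes had 2436 CPM in EXO and 2204 in dEXO, and the 18 PBS cells had 2193. Late spermatocytes had 1260 CPM in EXO and 1364 in dEXO, and the 36 PBS cells 1585, while spermatids had 692, 674 and 780. A germ subcluster that could not be named, g8, had 2078 CPM in 4 PBS cells, 2325 in EXO and 2222 in dEXO, above the spermatogonia of each library and, in dEXO, level with the early spermatocytes. The somatic classes lay below the spermatogonia in every library: 487, 673 and 682 CPM in Sertoli-like cells, 477, 578 and 633 in stromal-like cells, 366, 408 and 479 in T or NK-like cells, 248, 258 and 292 in Leydig-like cells and 243, 254 and 356 in macrophage-like cells. By CPM alone, with no interval and no size rule, 22 of the 31 genes had a higher level in some germ stage than in every somatic class in all 3 libraries. For 3, Fancc, Fan1 and Dclre1b, the highest level was in a somatic class, which was the stromal-like class. Fancc in EXO was nearly level between early spermatocytes and that class. Stages of at least 50 cells were used, which were 4 in EXO and dEXO but only spermatogonia and spermatids in PBS. The share of all genes with either pattern was not counted.

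**Figure D1:**
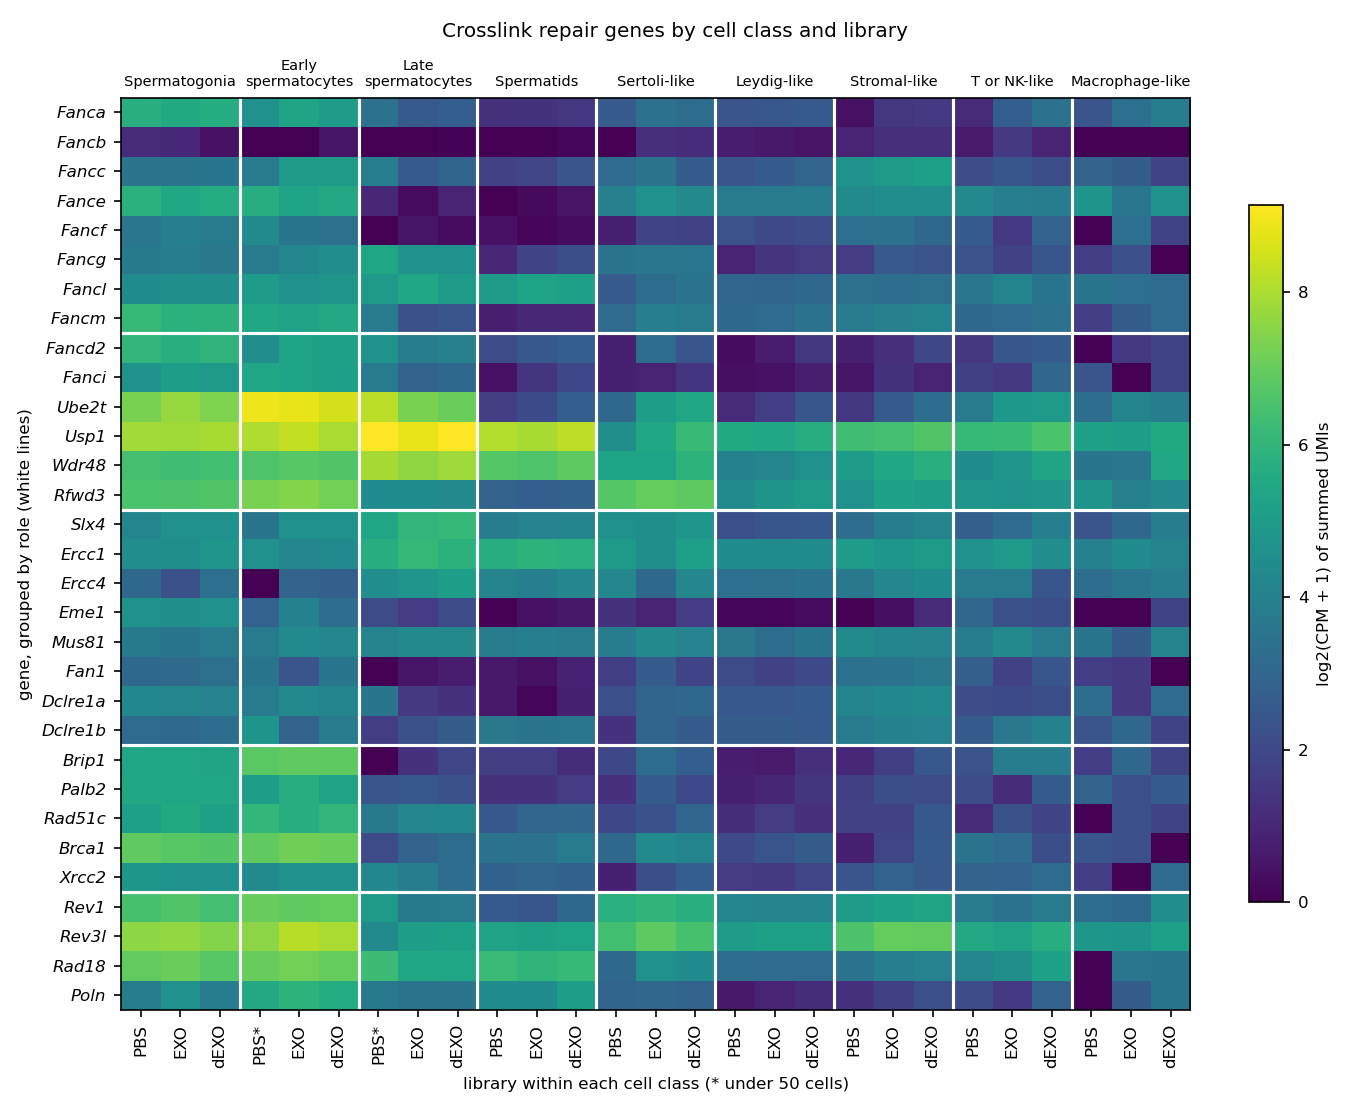
Level of each gene (rows, grouped by role) in 9 cell classes, with the 3 libraries side by side in each class; colour is log2(CPM + 1) of the summed UMIs, and an asterisk marks classes of under 50 cells. The first 2 germ classes are bright for most genes, Usp1 and Wdr48 are brightest in late spermatocytes, and the Leydig-like columns are dark for Brip1, Palb2, Fancd2, Fanci and Eme1.

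Spermatogonia, which hold the stem and dividing cells of the germ line, were compared with Leydig-like cells, the steroid-producing somatic cells of the same libraries. In this spermatogonia class 8 undifferentiated markers summed to 149, 128 and 171 CPM in PBS, EXO and dEXO. The 8 differentiating markers summed to 1750, 1548 and 1682 CPM, and the 12 early spermatocyte markers to 2262, 3022 and 2484 CPM. The levels are therefore not those of stem cells alone. Of the 31 genes 30 passed the count limit in all 3 libraries, Fancb being the exception, and 25 were higher in spermatogonia while 0 were lower. Among all 12976 genes measured, 35.3% were called higher and 20.7% lower. The median gene of the list was higher by 2.55, 2.58 and 2.38 on the log2 scale in PBS, EXO and dEXO, against 0.58, 0.55 and 0.54 for all measured genes. Relative to that median gene 23 were higher and 0 lower, and the calls that went were those of Fancf and Fan1. The summed level was 6.86-fold (6.63 to 7.09), 6.76-fold (6.54 to 6.99) and 5.66-fold (5.50 to 5.83) that of Leydig-like cells.

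By role, the 5 homologous recombination genes had the highest medians, with log2 ratios of 5.30, 4.70 and 4.71 in PBS, EXO and dEXO, and the nucleases the lowest, with 0.91, 1.12 and 1.16. Fancd2, the central target of the pathway's ubiquitin ligase, was at 64.4, 54.0 and 61.2 CPM in spermatogonia and at 0.237, 0.630 and 1.78 CPM in Leydig-like cells. Its log2 ratio was 8.08 (7.32 to 8.95) in PBS, 6.42 (5.82 to 7.08) in EXO and 5.10 (4.67 to 5.56) in dEXO, so spermatogonia of every library lay above Leydig-like cells of every library. Brip1, a helicase that works with BRCA1, was at 40.3, 40.3 and 39.2 CPM in spermatogonia and at 0.602, 0.581 and 1.33 CPM in Leydig-like cells. Eme1, the partner of the MUS81 nuclease, was at 24.9, 22.8 and 22.9 CPM against 0.0792, 0.0969 and 0.210 CPM, whereas Mus81 itself was nearly level at 12.1, 10.9 and 12.5 CPM against 11.3, 8.45 and 10.9 CPM. Ercc1 and Ercc4, which form the XPF-ERCC1 nuclease used in general excision repair as well, were also not called, nor were Fancc and Dclre1b. Thus 4 of the 8 nuclease genes were higher in spermatogonia, against 6 of 6 for the FANCD2-FANCI pair and its ubiquitin enzymes, 5 of 5 for homologous recombination, 4 of 4 for translesion synthesis and 6 of the 7 measured core complex genes. The Leydig-like class left out the unnamed cluster c22, led by cell cycle genes, where the Leydig gene Insl3 was at 12914, 15787 and 16092 CPM. In c22 Fancd2 was at 23.1, 32.2 and 28.3 CPM and Eme1 at 4.96, 22.45 and 14.99 CPM in PBS, EXO and dEXO. Brip1 was at 50.4, 53.7 and 45.0 CPM there, above the spermatogonia of each library. The part of cell division in the differences from Leydig-like cells was not tested.

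Sertoli-like cells, the nurse cells of the tubules, had lower levels than spermatogonia of most measured crosslink repair genes. Against them 23 genes were measured in the 3 libraries, 15 were higher in spermatogonia and 0 lower, where 26.9% of all 8915 measured genes were higher and 19.8% lower; 13 were higher relative to the median gene. Rfwd3, a ubiquitin ligase that acts at stalled forks, was at 105, 125 and 115 CPM in Sertoli-like cells, next to 94.1, 95.4 and 102 CPM in spermatogonia. Rev1, the scaffold polymerase of translesion synthesis, was at 54.6, 62.7 and 51.9 CPM there, and Rev3l, the catalytic subunit of polymerase zeta, at 81.5, 116 and 89.5 CPM. Late germ transcripts were also present in the Sertoli-like class (Ldhc 103, 296 and 759 CPM in PBS, EXO and dEXO), and their part in these levels was not tested.

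The genes were also sorted by the germ stage with their highest CPM, given at least 30 UMIs over the stages. This sorting uses no interval and no size rule, so the highest stage can be nearly level with another. By the size rule, 4 of 27 measured genes differed between spermatogonia and early spermatocytes. Of all 8504 genes measured there, 9.5% were higher and 9.75% lower in early spermatocytes. The share of all genes highest in each stage was not counted. Of the 31 genes, 25 had their highest level in the same stage in EXO and dEXO. For 6 this was the spermatogonia (Fanca, Fance, Fancf, Fancm, Fancd2, Eme1), for 13 the early spermatocytes (Fancc, Fanci, Ube2t, Rfwd3, Dclre1a, Brip1, Rad51c, Brca1, Xrcc2, Rev1, Rev3l, Rad18, Poln) and for 6 the late spermatocytes (Fancg, Usp1, Wdr48, Slx4, Ercc1, Ercc4). None had its highest level in spermatids in both libraries. The highest stage differed between EXO and dEXO for Fancl, Mus81, Fan1, Dclre1b and Palb2, and Fancb, an X-linked core gene with 181 UMIs in all barcodes together, had too few counts to place.

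**Figure D2:**
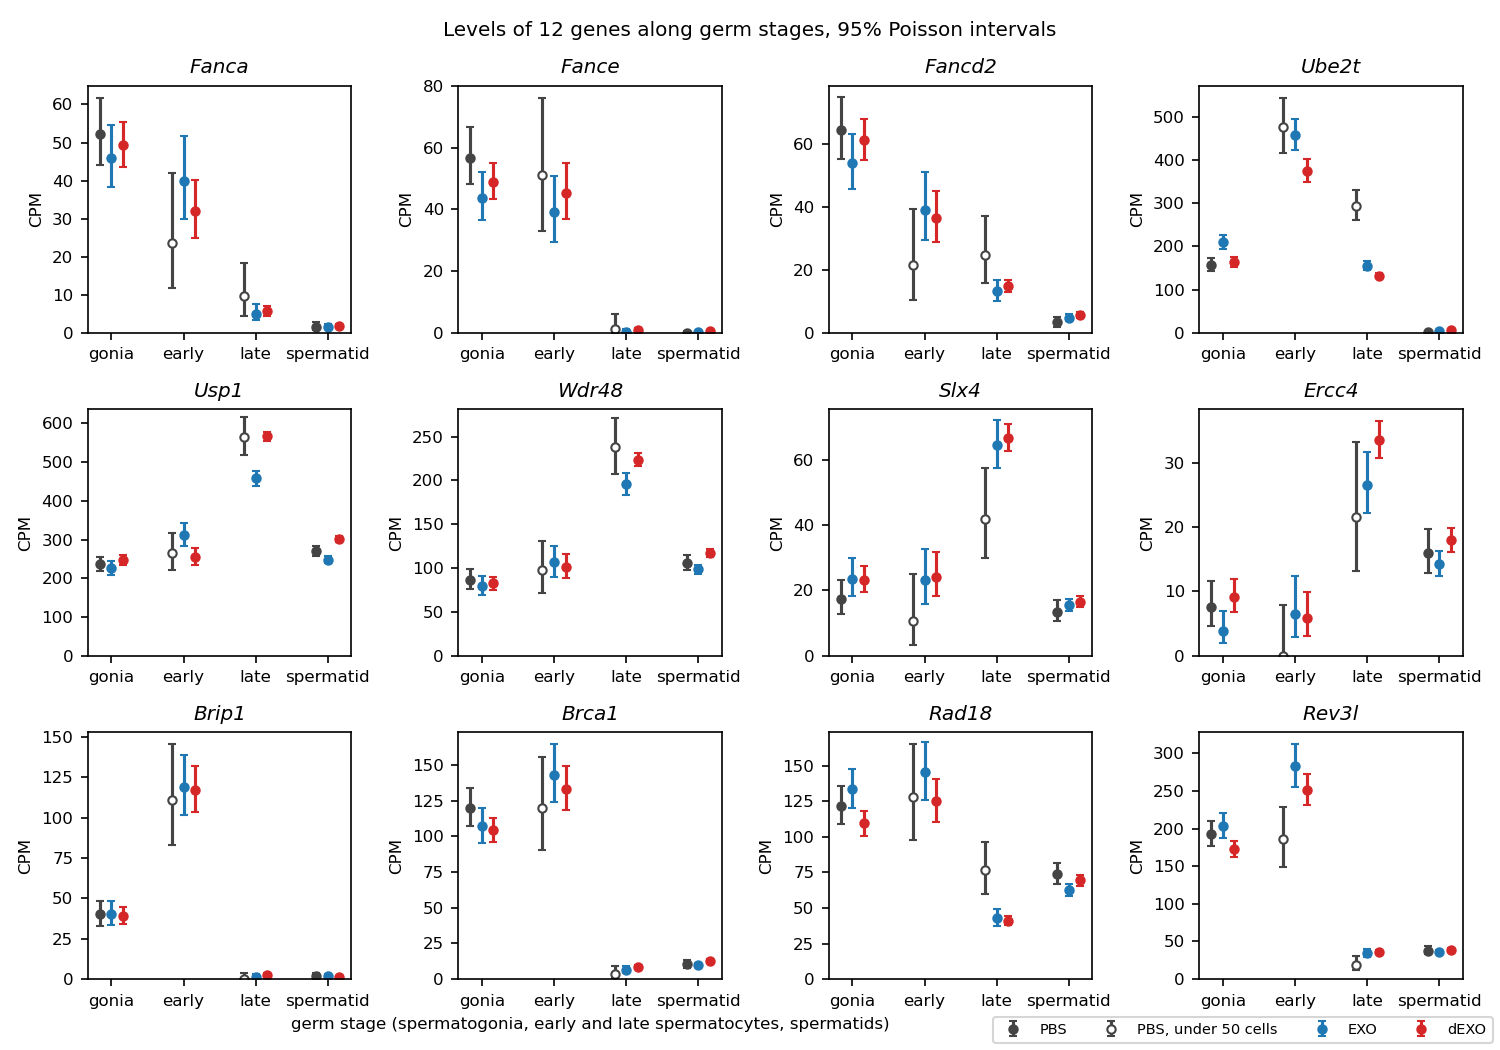
CPM (vertical axis, from 0) of 12 genes in spermatogonia, early spermatocytes, late spermatocytes and spermatids; points are libraries, bars are exact 95% Poisson intervals and open points are PBS classes of under 50 cells. Fanca, Fance, Brip1 and Brca1 drop between early and late spermatocytes, while Usp1, Wdr48, Slx4 and Ercc4 are highest in late spermatocytes.

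Early spermatocytes, the cells that enter meiosis and make its programmed breaks, differed little from spermatogonia in most of the genes. The classes also shared markers. In EXO and dEXO the 8 differentiating markers summed to 1914 and 2106 CPM in early spermatocytes against 1548 and 1682 CPM in spermatogonia. The 12 early spermatocyte markers summed to 9030 and 8467 CPM against 3022 and 2484 CPM. The part of this overlap in the small differences was not tested. Of 27 measured, 4 were higher (Fancc, Ube2t, Brip1 and Poln) and 0 lower, where 9.5% of all 8504 measured genes were higher and 9.75% lower. Ube2t, the E2 enzyme that serves the core complex, was at 460 and 376 CPM in early spermatocytes of EXO and dEXO and at 210 and 164 CPM in spermatogonia, and the 18 PBS cells had 478 CPM against 158 CPM. Its log2 ratio was 1.13 in EXO and 1.20 in dEXO. Brip1 was at 119 and 117 CPM against 40.3 and 39.2 CPM, a log2 ratio of 1.56 (1.21 to 1.92) and 1.58 (1.32 to 1.85). Poln, a translesion polymerase also tied to crosslink repair, was at 60.01 and 48.9 CPM against 23.1 and 13.6 CPM. For Ube2t, Brip1 and Poln the PBS cells had the same order, with 111 CPM of Brip1 and 44.9 CPM of Poln in early spermatocytes against 40.3 and 13.2 CPM in spermatogonia. Fancc, a core complex subunit, was at 29.6 and 30.5 CPM against 10.5 and 10.7 CPM. The early class was shallower, with a median of 1809 UMIs per cell in EXO and 2139 in dEXO against 11449 and 13128 in spermatogonia. It also had a higher mitochondrial share, with a median of 9.06% of UMIs in EXO and 8.87% in dEXO against 1.21% and 1.98% in spermatogonia. The part of depth and of the mitochondrial share in these values was not tested.

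Late spermatocytes, here the cells with pachytene and later markers, differed from spermatogonia in both directions. The late class was shallower, with a median of 2468.5 UMIs per cell in EXO and 3166 in dEXO against 11449 and 13128 in spermatogonia. The part of depth in these values was not tested. Of 27 genes measured in EXO and dEXO, 14 were lower and 5 higher in late spermatocytes, where 43.4% of all 10782 measured genes were lower and 29.1% higher. The list's lower share was thus near that of all genes, and its higher share was below that of all genes. The list's median log2 ratio was -1.63 in EXO and -1.48 in dEXO, against -0.70 and -0.65 for all measured genes. Relative to that median gene the split was 13 lower and 8 higher: Rad18 was no longer called, and Fancg, Fancl and Mus81 were added to the higher ones. The summed level of the list was lower by total UMIs, with a log2 ratio of -0.47 (-0.52 to -0.41) in EXO and -0.28 (-0.31 to -0.24) in dEXO, but higher relative to the median gene, at 0.23 and 0.37. Without Usp1, which made up 36.4% and 41.5% of the list's UMIs in late spermatocytes but 13.0% and 14.9% in spermatogonia, the sum was lower by total UMIs at -0.92 and -0.82. With cells thinned to 1000 UMIs and clustered anew, the summed ratio in dEXO was 0.060, on 64 late spermatocytes, and 2 genes were called. EXO then had 28 late spermatocytes and its ratio was not computed. Leaving out shallow germ subclusters, those with a median below that of their library (3144.5 UMIs in EXO), gave -0.85 for the summed list in EXO. Only subcluster g10, with 119 cells, was then left of the EXO late spermatocytes.

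**Figure D3:**
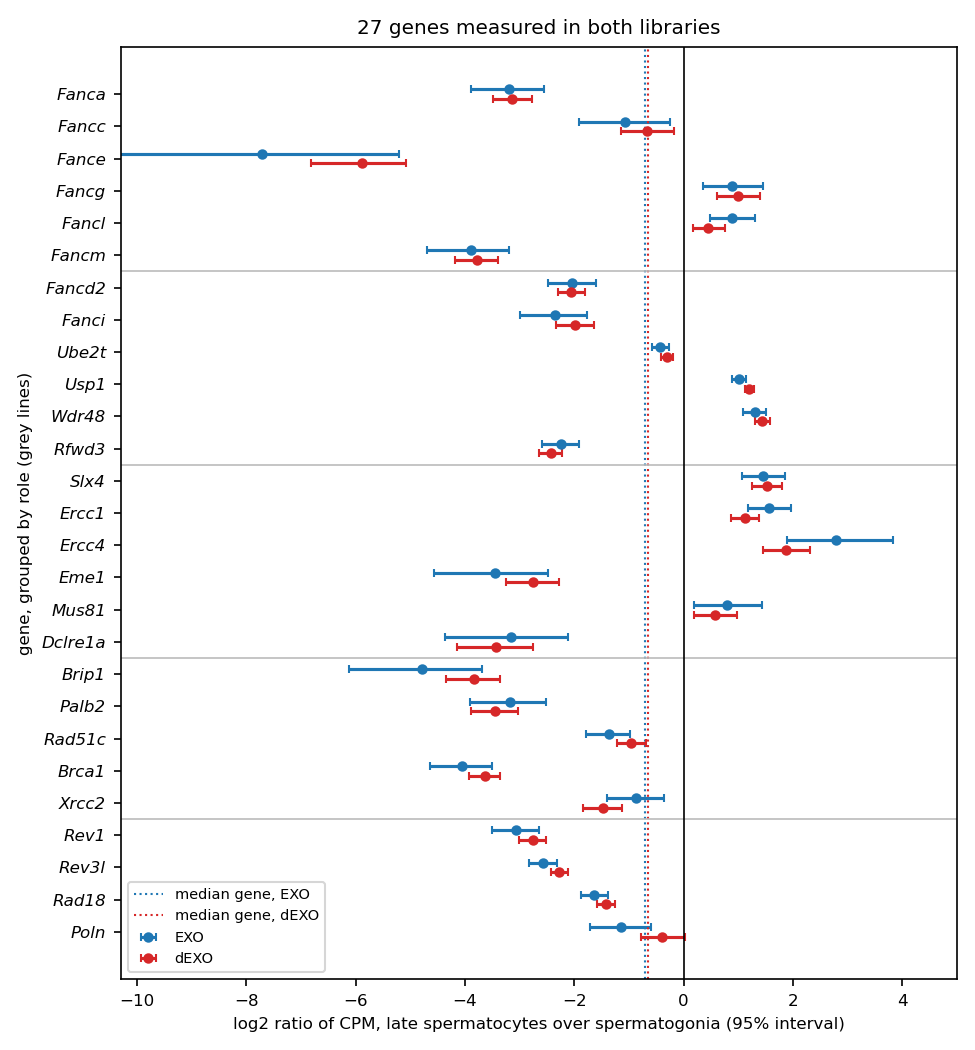
Log2 ratio of CPM in late spermatocytes over spermatogonia for the 27 genes measured in EXO and dEXO, with exact 95% intervals; grey lines part the roles, the solid line is no difference and dotted lines mark the median of all measured genes (-0.70 and -0.65). The lower bound of Fance in EXO runs off the axis. Homologous recombination and translesion genes lie to the left, and Usp1, Wdr48, Slx4, Ercc1 and Ercc4 lie to the right in both libraries.

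Within the core complex the lower genes were Fanca, Fance and Fancm. Fance, which bridges the core to FANCD2, was at 43.8 and 48.9 CPM in spermatogonia of EXO and dEXO and at 0.209 and 0.829 CPM in late spermatocytes. The EXO value there rests on so few UMIs that its log2 ratio of -7.71 has an interval of -13.03 to -5.21, and dEXO gave -5.88 (-6.81 to -5.08). Fancm, the translocase that brings the core to DNA, was at 56.1 and 58.5 CPM against 3.76 and 4.27 CPM, and Fanca at 45.9 and 49.2 CPM against 5.02 and 5.61 CPM. Fancg and Fancl did not share this pattern. Fancl, the ligase subunit itself, was at 22.8 and 22.6 CPM in spermatogonia, 42.0 and 30.9 CPM in late spermatocytes and 38.4 and 35.7 CPM in spermatids. Fancg was at 13.7 and 11.6 CPM in spermatogonia and 25.3 and 23.2 CPM in late spermatocytes, just short of the 2-fold limit, and at 2.59 and 3.53 CPM in spermatids.

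In the ubiquitin step the substrates and the deubiquitinase differed in direction. Fancd2 was at 54.0 and 61.2 CPM in spermatogonia and 13.2 and 14.7 CPM in late spermatocytes of EXO and dEXO, and Fanci at 33.3 and 29.4 CPM against 6.48 and 7.401 CPM. Usp1, which removes ubiquitin from the pair, was at 227 and 247 CPM against 458 and 567 CPM, a log2 ratio of 1.02 (0.89 to 1.15) and 1.20 (1.12 to 1.28). Its activating partner Wdr48 was at 79.6 and 82.5 CPM against 196 and 224 CPM, a log2 ratio of 1.30 (1.09 to 1.51) and 1.44 (1.30 to 1.58). In the 36 late spermatocytes of PBS the values were 566 CPM of Usp1 and 238 CPM of Wdr48, above the PBS spermatogonia at 236 and 86.6 CPM, and 24.7 CPM of Fancd2, below 64.4 CPM. A few deep cells carry much of these PBS sums. Rfwd3 was lower, at 20.1 and 18.8 CPM against 95.4 and 102 CPM.

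The nucleases split in the same way. Slx4, the scaffold that holds several nucleases, was at 64.4 and 66.7 CPM in late spermatocytes of EXO and dEXO against 23.5 and 23.3 CPM in spermatogonia. Ercc4, the catalytic subunit of XPF-ERCC1, was at 26.6 and 33.5 CPM against 3.86 and 9.13 CPM, and Ercc1 at 67.3 and 57.5 CPM against 22.8 and 26.5 CPM. In PBS late spermatocytes these 3 genes were at 41.9, 21.5 and 50.5 CPM against 17.3, 7.53 and 21.5 CPM in spermatogonia. The same few deep cells weigh on these PBS values. Eme1 was lower, at 2.09 and 3.38 CPM against 22.8 and 22.9 CPM, and so was the SNM1A nuclease gene Dclre1a, at 1.88 and 1.47 CPM against 16.8 and 15.8 CPM.

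Homologous recombination and translesion genes were lower in late spermatocytes wherever they were called. Brca1 was at 107 and 104 CPM in spermatogonia, 143 and 133 CPM in early spermatocytes and 6.48 and 8.36 CPM in late spermatocytes of EXO and dEXO. Brip1 was at 1.46 and 2.74 CPM in late spermatocytes, a log2 ratio of -4.78 (-6.13 to -3.69) and -3.84 (-4.34 to -3.36) to spermatogonia. Palb2, the bridge between BRCA1 and BRCA2, was at 4.60 and 3.83 CPM against 41.7 and 41.9 CPM. Rad51c and Xrcc2, which act in strand exchange, were nearer to level: Rad51c was at 18.0 and 18.3 CPM against 46.6 and 35.6 CPM. Rev1 was at 11.9 and 12.6 CPM against 99.9 and 85.2 CPM, and Rev3l at 34.3 and 35.7 CPM against 204 and 172 CPM. Rad18, the ligase that starts translesion synthesis at PCNA, was at 43.1 and 41.0 CPM against 134 and 109 CPM, but its ratio turned to 0.0062 and 0.19 when each cell counted equally in place of each UMI.

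Compared directly with early spermatocytes, 16 of 25 measured genes were lower in late spermatocytes and 3 (Slx4, Ercc1, Ercc4) higher, where 38.9% of all 9642 measured genes were lower and 32.7% higher. The list's median was -1.75 in EXO and -1.80 in dEXO, against -0.31 and -0.32 for all measured genes, and relative to these 15 were lower and 4 higher. The lower genes included Ube2t at 156 and 132 CPM, from 460 and 376 CPM, and Fancc at 5.02 and 6.76 CPM, from 29.6 and 30.5 CPM. Both had stood above the spermatogonia in the early class.

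Spermatids, the haploid cells, had a lower summed level of crosslink repair transcripts than late spermatocytes. The class joins round spermatids, with medians of 8694 and 5603 UMIs in EXO and dEXO, and elongating ones, with 1895.5 and 1916. It shared markers with late spermatocytes: the 10 late spermatocyte markers summed to 10267 and 10318 CPM, against 13212 and 12837 CPM there. The part of depth and of this overlap was not tested. Of 21 genes measured, 7 were lower (Fancg, Fancd2, Fanci, Ube2t, Rfwd3, Slx4, Rad51c) and 1 higher (Dclre1b), where 20.6% of all 12227 measured genes were lower and 23.9% higher; relative to the median gene 7 were lower and 2 higher, Poln being added. The list's median was -0.90 in EXO and -0.73 in dEXO, against -0.25 for all measured genes in each. Ube2t was at 3.15 and 5.59 CPM in spermatids against 156 and 132 CPM, a log2 ratio of -5.63 (-6.07 to -5.21) and -4.56 (-4.85 to -4.29). Slx4 was at 15.5 and 16.5 CPM against 64.4 and 66.7 CPM. Dclre1b, the Apollo nuclease that also protects telomeres, was at 10.3 and 11.2 CPM against 3.76 and 5.49 CPM. Usp1 at 248 and 301 CPM, Wdr48 at 98.5 and 117 CPM, Ercc1 at 59.7 and 55.3 CPM and Rad18 at 62.5 and 69.3 CPM were above the Leydig-like class of the same library. In the 70 PBS spermatids these 4 genes were at 270, 106, 50.4 and 73.9 CPM.

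The other genes of the pathway, a list of 30 that are not among the 31, is given beside the shares of all measured genes in the same comparisons. In spermatogonia 23 of 30 were higher than in Leydig-like cells and 0 lower, beside 35.3% and 20.7% of all genes. In late spermatocytes 15 of 27 measured were lower than in spermatogonia and 1 higher, beside 43.4% and 29.1%, so the lower share was near that of all genes. The higher one was Mad2l2, the REV7 subunit of polymerase zeta and of shieldin, at 521 and 409 CPM in late spermatocytes of EXO and dEXO against 42.4 and 46.4 CPM in spermatogonia; the PBS values were 397 and 38.4 CPM. Its catalytic partner Rev3l was lower in the same comparison, as given above. Rad51b, Brca2 and Atr were the 3 of 27 higher in early spermatocytes than in spermatogonia, Brca2 at 862 and 782 CPM against 244 and 241 CPM and Atr, the kinase of stalled forks, at 587 and 568 CPM against 192 and 158 CPM. Faap24 and Ube2w were lower there, and 9.5% of all genes were higher and 9.75% lower. In spermatids 15 of 27 were lower than in late spermatocytes and 2, Rad51b and Chek1, higher, beside 20.6% and 23.9%. Of 15 DNA replication genes, 15 were higher in spermatogonia than in Leydig-like cells and 12 were lower and 0 higher in late spermatocytes than in spermatogonia, with list medians of -5.21 and -4.73. Of 10 damage response genes, 1 was higher and 2, Cdkn1a and Eda2r, lower in spermatogonia than in Leydig-like cells, and 6 of 7 measured were lower in late spermatocytes than in spermatogonia.

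Promoter sequences show which letters lie near the starts of genes that went opposite ways between spermatogonia and late spermatocytes. The RefSeq table of GRCm38.p6 promoters, from 250 bases before to 50 after a start, held 27 of the 31 genes. The search covered CCAAT, the core of the NF-Y box, the E2F letters TTTCCCGC, TTTCGCGC, TTTGCCGC and TTTGGCGC, and the MYB core CNGTTG, each on both strands. CCAAT was found in 14 of 27 (51.9%), against 37.4% of all 32851 promoters, in 7 of the 12 lower genes and 2 of the 4 higher genes that had an entry. An E2F match was found in 2 of 27, Fancg and Rad51c (7.41% against 2.26%), and CNGTTG in 8 of 27 (29.6% against 35.0%). E2F letters lay in 0 of the 12 lower and 0 of the 4 higher genes, and CNGTTG in 2 and 1 of them. A listed gene counted as matched when any of its promoter entries matched, whereas the share of all promoters counts each entry. A match is a description of letters and not of binding. The promoters shown next are picked examples, and the lower genes Fanci, Eme1, Dclre1a, Rev1 and Rad18 had no CCAAT match. The promoters of 3 genes that were lower in late spermatocytes (Fanca, Brca1, Brip1), of 2 that were higher (Ercc4, Wdr48), and of Fancg with its E2F letters, are given 5′ to 3′ along the gene, with CCAAT, its complement ATTGG and the E2F letters in capitals.
Fanca, chr8:123318527-123318826, - strand: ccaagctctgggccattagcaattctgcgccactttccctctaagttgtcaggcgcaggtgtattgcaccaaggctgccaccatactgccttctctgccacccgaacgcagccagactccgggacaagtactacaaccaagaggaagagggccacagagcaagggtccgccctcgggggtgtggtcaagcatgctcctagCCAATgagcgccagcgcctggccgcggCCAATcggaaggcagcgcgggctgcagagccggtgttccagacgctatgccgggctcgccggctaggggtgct
Brca1, chr11:101551906-101552205, - strand: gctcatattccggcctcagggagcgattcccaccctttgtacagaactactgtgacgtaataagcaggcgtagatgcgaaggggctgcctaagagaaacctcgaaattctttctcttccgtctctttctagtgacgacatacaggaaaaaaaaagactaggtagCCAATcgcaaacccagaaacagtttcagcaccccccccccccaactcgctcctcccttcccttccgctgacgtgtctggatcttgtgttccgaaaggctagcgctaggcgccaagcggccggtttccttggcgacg
Brip1, chr11:86201144-86201443, - strand: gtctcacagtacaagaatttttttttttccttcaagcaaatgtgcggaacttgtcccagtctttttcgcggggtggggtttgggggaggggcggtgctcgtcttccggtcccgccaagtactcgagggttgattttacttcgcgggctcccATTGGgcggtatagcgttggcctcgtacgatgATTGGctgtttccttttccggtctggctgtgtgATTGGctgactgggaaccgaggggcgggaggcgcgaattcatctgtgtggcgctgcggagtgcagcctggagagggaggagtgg
Ercc4, chr16:13109486-13109785, + strand: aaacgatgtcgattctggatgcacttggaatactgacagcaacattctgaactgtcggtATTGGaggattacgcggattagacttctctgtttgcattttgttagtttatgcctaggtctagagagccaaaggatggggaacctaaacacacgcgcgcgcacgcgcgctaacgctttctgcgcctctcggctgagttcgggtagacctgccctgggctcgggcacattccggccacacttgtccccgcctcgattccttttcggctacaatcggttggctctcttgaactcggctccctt
Wdr48, chr9:119894645-119894944, + strand: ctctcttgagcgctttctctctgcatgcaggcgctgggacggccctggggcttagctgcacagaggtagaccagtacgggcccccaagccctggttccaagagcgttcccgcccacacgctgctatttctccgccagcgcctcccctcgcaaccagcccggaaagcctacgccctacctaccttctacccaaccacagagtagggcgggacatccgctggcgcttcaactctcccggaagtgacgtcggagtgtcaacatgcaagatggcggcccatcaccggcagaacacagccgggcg
Fancg, chr4:43010252-43010551, - strand: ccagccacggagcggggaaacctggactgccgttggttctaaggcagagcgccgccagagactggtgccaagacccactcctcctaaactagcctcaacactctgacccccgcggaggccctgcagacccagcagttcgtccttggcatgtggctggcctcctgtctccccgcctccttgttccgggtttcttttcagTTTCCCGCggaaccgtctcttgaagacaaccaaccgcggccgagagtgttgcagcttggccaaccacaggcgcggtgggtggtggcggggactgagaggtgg
Brip1 had 3 CCAAT matches, the first bases of which lay 99, 67 and 34 bases before the start, Fanca had 2 at 50 and 23 bases before it, Brca1 had 1 at 86 bases and Ercc4 had 1 at 191 bases. Wdr48 had none of the searched letters, and the E2F match of Fancg began 52 bases before the start.

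The libraries were then compared within each class, to see whether exosome treatment went with different levels of the genes. EXO and dEXO share the PBS library as their control. In spermatogonia 0 of 27 measured genes were called between EXO and PBS and 0 of 30 between dEXO and PBS, where 0.922% and 4.02% of all measured genes were higher and 0.801% and 0.269% lower. The list's log2 ratios ran from -0.38 to 0.81 with a median of 0.0011 in EXO, and from -0.25 to 0.43 with a median of -0.0054 in dEXO. The summed ratio to PBS was 0.039 (-0.020 to 0.097) in EXO and -0.039 (-0.090 to 0.013) in dEXO on the log2 scale. Between dEXO and EXO 1 of 30 was called, Ercc4, with 51 UMIs in dEXO and 11 in EXO (9.13 against 3.86 CPM, log2 ratio 1.24, 0.29 to 2.33), where 3.09% of all genes were higher and 0.219% lower. In early and late spermatocytes 0 of 25 and 0 of 26 genes were called between dEXO and EXO, where 2.09% and 2.11% of all genes were higher and 0.162% and 0.286% lower.

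Over all classes, 7 of 118 gene and class pairs were higher and 0 lower in EXO than in PBS, next to 4.38% and 1.18% of all pairs measured. For dEXO against PBS it was 16 of 124 higher and 0 lower, next to 7.56% and 1.16%, and for dEXO against EXO 6 of 184 higher and 1 lower, next to 4.01% and 0.512%. The called pairs lay mostly in somatic classes with low levels of the genes. In Sertoli-like cells Ube2t, Usp1, Brca1 and Rad18 were higher in EXO than in PBS and in dEXO than in PBS, 2 comparisons that share the same 81 PBS cells, where 3.93% and 10.7% of all genes were higher and 1.18% and 1.17% lower. Usp1 was at 21.7 CPM in PBS, 43.7 CPM in EXO and 71.6 CPM in dEXO, Ube2t at 7.47, 32.7 and 40.6 CPM, Rad18 at 7.47, 23.4 and 20.5 CPM and Brca1 at 7.47, 19.4 and 16.4 CPM. Ube2t, Rad18 and Brca1 each had 10 UMIs in those PBS cells. Markers of other cells also differed in this class: the 7 Leydig markers summed to 5107, 1432 and 2491 CPM in PBS, EXO and dEXO, and the 12 early spermatocyte markers to 130, 502 and 518 CPM. Their part in the 4 calls was not tested.

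In Leydig-like cells 6 of 29 genes were higher in dEXO than in PBS, where 11.1% of all genes were higher and 2.58% lower. Between EXO and PBS 0 of 28 were called, where 7.17% were higher and 1.65% lower. Fancd2 was at 0.237 CPM in PBS, 0.630 in EXO and 1.78 in dEXO, a log2 ratio of dEXO to PBS of 2.91 (2.06 to 3.85). Ube2t was at 1.12, 2.16 and 4.44 CPM, Fancg at 0.902, 1.60 and 2.03 CPM, Brip1 at 0.602, 0.581 and 1.33 CPM, Palb2 at 0.744, 0.993 and 1.57 CPM and Poln at 0.554, 0.823 and 1.29 CPM. Fancd2, Ube2t and Brip1 were also higher in dEXO than in EXO, where 6.85% of all genes were higher and 1.5% lower. The Leydig-like class drew on different clusters in the libraries: cluster c7 held 919 of 2038 cells in PBS, c1 1206 of 2443 in EXO and c2 1520 of 2011 in dEXO. Within cluster c0, which had 701 PBS and 267 dEXO cells, the 6 log2 ratios of dEXO to PBS ran from 0.41 for Fancg, on 16 PBS and 3 dEXO UMIs, to 2.02 for Fancd2, on 7 PBS and 4 dEXO UMIs, and the intervals excluded 0 for Ube2t and Brip1 but not for the other 4. Within c1, with 347 PBS and 112 dEXO cells, Ube2t was the 1 of the 6 with a higher level and an interval above 0; Fancg had a log2 ratio of -0.28 (-3.41 to 1.76) and Palb2 had 14 PBS and 0 dEXO UMIs. Within c19, with 56 PBS and 92 dEXO cells, Ube2t had 4 PBS and 26 dEXO UMIs and Fancd2 0 and 11, while the other 4 had at most 1 UMI in PBS. The 31 genes summed gave 0.26 (0.15 to 0.37) in c0, 0.13 (-0.041 to 0.29) in c1 and 0.66 (0.44 to 0.88) in c19.

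In the other classes the calls were few. In stromal-like cells Fancg and Ube2t were higher in EXO than in PBS (4.85 against 2.02 and 5.03 against 1.81 CPM), Ube2t in dEXO than in PBS (8.83 CPM) and Brip1 in dEXO than in EXO (4.58 against 2.25 CPM). All genes of that class were higher in 8.37%, 10.6% and 5.43% and lower in 0.341%, 0.294% and 0.373% of cases for EXO against PBS, dEXO against PBS and dEXO against EXO. In T or NK-like cells Ube2t was at 12.9 CPM in PBS, 28.4 in EXO and 28.8 in dEXO, and Rad18, called in dEXO against PBS, at 17.0, 22.1 and 36.9 CPM. In the same order of comparisons 1.94%, 5.87% and 5.12% of all genes there were higher and 1.76%, 1.51% and 0.454% lower. In spermatids Fancg, Fanci and Ube2t were higher in dEXO than in PBS, at 3.53 against 1.08, 2.85 against 0.360 and 5.59 against 2.16 CPM, of which Fanci had 2 UMIs in PBS. Of all genes in spermatids 1.26%, 2.24% and 1.58% were higher and 1.22%, 0.57% and 0.23% lower. Fancc was the 1 gene called lower, in Sertoli-like cells of dEXO against EXO, at 5.28 against 10.6 CPM, and Ercc4 was higher there at 18.1 against 7.51 CPM, where 5.44% of all genes were higher and 0.488% lower. No gene of the list reached 50 UMIs in macrophage-like cells.

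Transcripts of late germ cells moved with the libraries in the same somatic classes. Ldhc, the lactate dehydrogenase of spermatocytes and spermatids, was at 23.2, 60.5 and 179 CPM in Leydig-like cells, 80.1, 246 and 649 CPM in stromal-like cells and 104, 298 and 811 CPM in T or NK-like cells of PBS, EXO and dEXO. The 10 late spermatocyte markers together were at 81.1, 141 and 302 CPM in Leydig-like cells and 259, 576 and 1234 CPM in Sertoli-like cells, and barcodes led by haemoglobin genes had 713, 1925 and 2288 CPM of them. Those haemoglobin-led barcodes had 442, 800 and 717 CPM of the 31 genes. They also had 7789, 8008 and 9008 CPM of the 7 stromal markers, against 18846, 15917 and 17124 CPM in stromal-like cells, so they are no class that lacks the genes. The part of late germ transcripts in the somatic differences was not tested. In spermatogonia Ldhc also differed, at 28.6, 85.6 and 246 CPM, and the part of late germ transcripts in that class was not tested either.

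**Figure D4:**
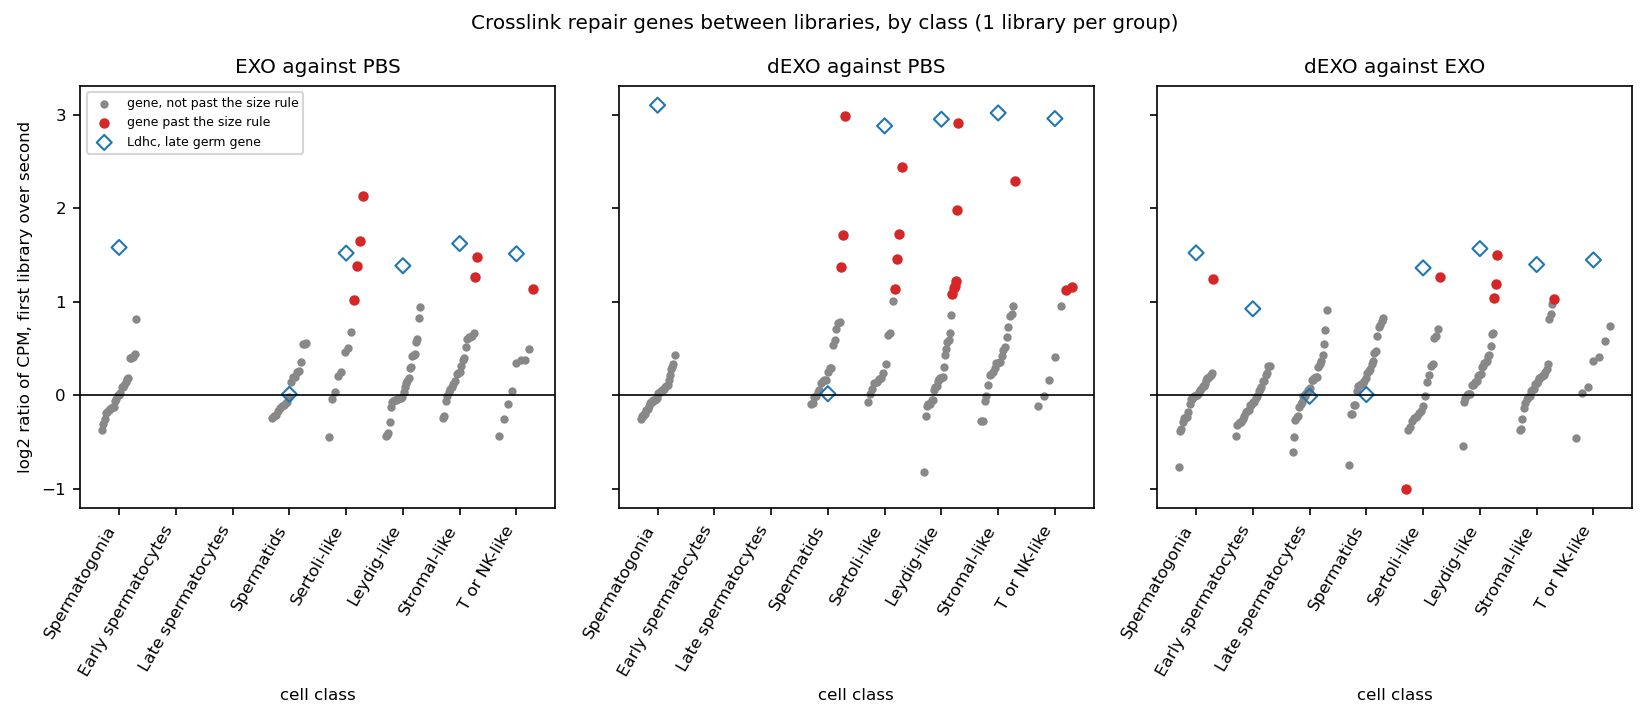
Log2 ratios of CPM between libraries for each gene measured in a class (points, sorted within the class), with genes past the size rule in red and the late germ gene Ldhc as an open diamond. Spermatogonia have no red point against PBS and 1 (Ercc4) in dEXO against EXO, the other red points are in somatic classes and spermatids, and Ldhc is above 0 in spermatogonia and somatic classes but near 0 in spermatids.

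Of the 10 damage response genes, 5 of 48 gene and class pairs were lower and 0 higher in EXO than in PBS, beside 1.18% and 4.38% of all pairs measured. In dEXO 5 of 50 were lower and 0 higher than in PBS, beside 1.16% and 7.56%. Between dEXO and EXO 1 of 60 was lower and 2 higher, beside 0.512% and 4.01%. Cdkn1a, the p53 target that stops the cell cycle, was at 136, 89.9 and 44.3 CPM in Leydig-like cells of PBS, EXO and dEXO, a log2 ratio of dEXO to PBS of -1.62 (-1.71 to -1.54). The crosslink repair genes summed in the same class were at 248, 258 and 292 CPM. Of the 30 other pathway genes, 3 of 134 pairs were higher in EXO and 7 of 136 in dEXO than in PBS with 0 lower in both, and of the 15 replication genes 5 of 75 and 7 of 78 were higher and 2 lower in each, beside the same shares of all pairs.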

How the data were processed

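The deposited values are raw counts of UMIs per gene and barcode for 3 testis libraries of the 10x Genomics 3′ kit (V3). The matrices name Cell Ranger 5.0.1, per the file headers, and the submitters' processing notes list Seurat and GRCm38 with no role for Seurat. Because 3′ ends are read, isoforms were not separated. By the GENCODE annotation of GRCm38, 5 members overlap another gene on their strand (Fancc, Fancl, Rev1, Rev3l, Poln), none at its 3′ end.

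Barcodes below 500 UMIs or 300 genes or above 20% mitochondrial UMIs were dropped, and so were the calls of Scrublet (4 PBS, 2 EXO and 172 dEXO cells), although loading would give 4.21%, 7.89% and 7.29% doublets. Clustering in scanpy 1.11.5 used 2000 variable genes without the members, 30 components, 15 neighbours and Leiden resolution 1, with no batch correction. A cluster was named where at least 3 fixed markers were raised by at least 1 log2 unit and no other class led it, and germ clusters were split again and staged. The final naming rule was set after the clusters were seen. The members and lists were chosen with earlier results of these data known. Values are printed for members that passed the size rule in some comparison, also beside comparisons where they did not, and for Mus81, chosen after its values were seen. The other pathway, replication and damage response lists are given by counts, with values for Mad2l2, Brca2, Atr and Cdkn1a, picked among the called genes after they were seen.

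Counts were summed per class and library, and CPM and ratios got exact Poisson and conditional binomial intervals (Python 3.11.15, scipy 1.17.1). PCR and the sampling of animals are not covered. The comparisons of early with other stages and of spermatogonia with Sertoli-like cells were added after the data were seen. The code was tested on simulated counts. Alternatives changed resolution, doublets, depth, scaling, mitochondrial limit, thresholds and the genes clustered.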

Additional observations from a re-analysis of the deposited data

Results flagged for a closer look

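Clusters that no class name could be given to were outside the comparisons, and they too held transcripts of the 31 genes, above the limit that 3 counts allow. Germ subcluster g8, 165 cells with 2 of 10 late spermatocyte markers raised and 4, 40 and 121 cells in PBS, EXO and dEXO, had a summed level of 2243 CPM. Fancg was at 143.5 CPM, Slx4 at 196.3 CPM, Wdr48 at 301.1 CPM and Ercc4 at 37.9 CPM in g8, beside Brca1 at 21.1 CPM and Brip1 at 6.2 CPM. The Fancg level there was above that of every named germ subcluster, the next being 50.8 CPM. Germ subclusters g12, g18, g7 and g0 had 1396, 1186, 1341 and 844.5 CPM. Of these, g0 had Leydig markers raised, g18 Sertoli markers, and g7 stromal and immune markers.

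Cluster c22, 55, 114 and 54 cells led by cell cycle genes, had 877.1 CPM, with Insl3, a Leydig gene, at 12914, 15787 and 16092 CPM and Mki67 at 850.9, 867.7 and 813.0 CPM in PBS, EXO and dEXO. Brip1 was at 50.4, 53.7 and 45.0 CPM there, Brca1 at 38.0, 52.7 and 50.0 CPM, Ube2t at 63.6, 101.5 and 40.0 CPM and Usp1 at 172.6, 183.5 and 199.9 CPM. The other unnamed clusters were c15 with 311.5 CPM, c18 with 264.0 CPM, c25 with 290.2 CPM and c6 with 276.0 CPM.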

How the results depend on the processing

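No paired analysis was possible because each group is 1 library and the labels give no replicate numbers. Values below are log2 ratios of the summed genes or counts of genes called, and where they differ from the report the cause was not tested. For late spermatocytes over spermatogonia (EXO, dEXO) the direction turned to 0.23 and 0.37 when scaled by the median gene and to 0.060 in dEXO when cells were thinned to 1000 UMIs. That ratio was -0.39 and -0.18 at resolution 0.5, -0.35 and -0.14 with no doublet removed, -0.34 and -0.15 with the highest doublet scores removed, -0.13 and -0.19 with each cell counted equally, and -0.92 and -0.82 without Usp1. It was -0.23 in dEXO with the members allowed in clustering, and -0.85 in EXO without shallow germ subclusters, where only g10 was left of the late spermatocytes.

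For spermatids over late spermatocytes (EXO, dEXO) the ratio was -0.96 and -0.84 at resolution 0.5, -1.03 and -0.90 with no doublet removed, -0.82 and -0.51 with each cell counted equally, and -0.65 and -0.56 by the median gene. It was -1.15 in dEXO when thinned, -0.74 in dEXO without Usp1 and -0.53 in EXO without shallow germ subclusters, again with g10 alone as late spermatocytes. For spermatogonia over Leydig-like cells (PBS, EXO, dEXO) it was 2.66, 2.64 and 2.42 with no doublet removed, 2.68, 2.67 and 2.45 with the highest scores removed, 2.64, 2.60 and 2.38 with each cell equal, 2.20, 2.21 and 1.96 by the median gene, and 2.86, 2.83 and 2.55 without Usp1. In EXO it was 2.81 at resolution 2 and 2.88 when thinned.

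Thinning left 2 genes called for spermatogonia against Leydig-like cells, 2 for late spermatocytes against spermatogonia and 0 for spermatids against late spermatocytes; the thinned cells were also clustered anew, with 28 and 64 late spermatocytes in EXO and dEXO where the report has 274 and 524. For spermatids it was 4 with each cell equal and 15 at 1.5-fold. Between libraries (EXO against PBS, dEXO against PBS, dEXO against EXO) the calls were 0, 2 and 2 when thinned, 14, 31 and 25 with each cell equal (by fold alone), 18, 31 and 12 with at least 1 UMI, and 15, 28 and 22 at 1.5-fold. They were 16 and 28 against PBS with at least 20 UMIs, 4 for EXO against PBS with the highest doublet scores removed, and 13 for dEXO against EXO without shallow germ subclusters.

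Single genes turned when thinned: Fancl to -0.78 in spermatogonia over Leydig-like cells of EXO, and Palb2 to 0.50, Rev1 to 0.41 and Rad18 to 0.74 in late spermatocytes over spermatogonia of dEXO. With each cell equal Rad18 turned to 0.0062 in EXO and 0.19 in dEXO. Of the other values of single genes, all from genes called in the report, 1961 passed the size rule under an alternative and 181 did not. Part of the 1961 was fixed in advance. The limits of 20 UMIs, 1 UMI and 1.5-fold only loosen the rule on the same counts. Leaving out low-UMI clusters did not change the stage comparisons, and with each cell equal no interval was applied. The count is therefore no measure of how stable the calls are. Thinned values of under 10 UMIs (51) and 2 ratios of late spermatocytes in EXO on under 50 cells were not computed. The omission of Usp1, of shallow germ subclusters and the split of Leydig-like clusters were chosen after seeing the data. Within single Leydig-like clusters the dEXO to PBS ratio of the summed genes was 0.26, 0.13 and 0.66 in c0, c1 and c19, that of Ube2t 1.82, 2.22 and 3.05 and that of Ldhc 3.18, 2.28 and 2.68. Of the genes called in Leydig-like cells, Ube2t was the only one whose interval lay above 0 in each of these clusters.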
